A study of Mus musculus with 4 samples.

Results

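Transcripts of hematopoietic growth factor receptors other than the IL-3 receptor were followed in RNA-seq libraries of 32Dcl3-Abl1ko cells, kept with IL-3 or growing without it. The 9 genes were chosen by name for what their products do: Csf3r, Epor, Il6ra, Il6st, Il4ra, Ifngr1, Csf1r, Kit and Flt3. Earlier results of these data were known when they were chosen. Of these, 8 were among the 23756 genes of the deposited table, and Flt3 was not analysed here. 32Dcl3 is a mouse hematopoietic line that normally needs IL-3 to grow. All 4 libraries came from such cells with the genotype Abl1 KO, made by CRISPR/Cas9 with a lentiviral vector and selected with puromycin, and by the study's methods single clones were picked. The 2 Abl1ko/IL3+ libraries were from cells with IL-3 and the 2 Abl1ko/IL3- libraries from cells that grew without IL-3 after gradual withdrawal. The study sequenced them to find how gene expression differed between these conditions, and the comparison here is of the receptor genes. Its RNA-seq also compared 32Dcl3-Abl1 control cells kept with IL-3, and no library of those is among these 4. The duplicates were biological by the submitters' design text, but no source ties a library to a clone or a guide RNA, so p-values measure only the spread between these libraries.

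Cytokine receptors of the hematopoietin family, such as those for G-CSF, erythropoietin, IL-6 and IL-4, have no kinase of their own and pass their signal through bound JAK kinases to STAT transcription factors. The interferon gamma receptor works in the same way. CSF1R, KIT and FLT3 are instead receptor tyrosine kinases, which phosphorylate themselves once their ligand joins a pair of them. Each receptor is known for a branch of blood formation: CSF3R for neutrophils, CSF1R for monocytes and macrophages, EPOR for red cells, and KIT and FLT3 for stem and progenitor cells.

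Library totals ranged from 48953174 to 60382588 counts, so that 3 counts, taken as the limit of detection, were 0.0497 to 0.0613 CPM (counts scaled to library size). This limit covers counting error only. Abl1, the edited gene, had 1322 and 2222 counts with IL-3 against 1544 and 2256 counts without. Its log2 fold change was 0.21 (SE 0.45, adjusted p = 0.98, edgeR's quasi-likelihood test). Its RNA was thus present in every library, and RNA level alone does not show whether an edited gene still makes protein. The labels call the cells pre-B. Of the 8 listed markers of B cell precursors 6 were in the table. Rag1, which recombines antigen receptor genes, had 4 counts in 1 library and 0 in the other 3. Cd79b, a signalling chain of the B cell receptor, was at 6.24 to 10.9 FPKM (a level scaled by gene length and library size, as the authors deposited it). Mpo, the myeloperoxidase of neutrophil granules, was at 135 to 528 FPKM, so the label did not match the main markers and is not used as a name here.

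The 8 receptors fell into 4 genes with levels of about 1 FPKM or more in every library and 4 genes that did not exceed 0.196 FPKM in any library. Mean FPKM over the 4 libraries was 11.0 for Il4ra, 9.21 for Epor, 8.49 for Ifngr1 and 5.29 for Csf1r. The lowest value of any of these was 0.932 FPKM, for Csf1r in an Abl1ko/IL3+ library. The other means were 0.0920 FPKM for Csf3r, 0.0524 for Il6ra, 0.0177 for Il6st and 0.00317 for Kit. The ranges of neighbours in this order overlapped, except between Csf1r and Csf3r and between Il6st and Kit. The first 4 genes therefore had no fixed order among themselves, and their order differed between all 4 libraries. Ranked by median FPKM, Ifngr1 and Epor exchanged places, and the other receptors did not move.

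**Figure D1:**
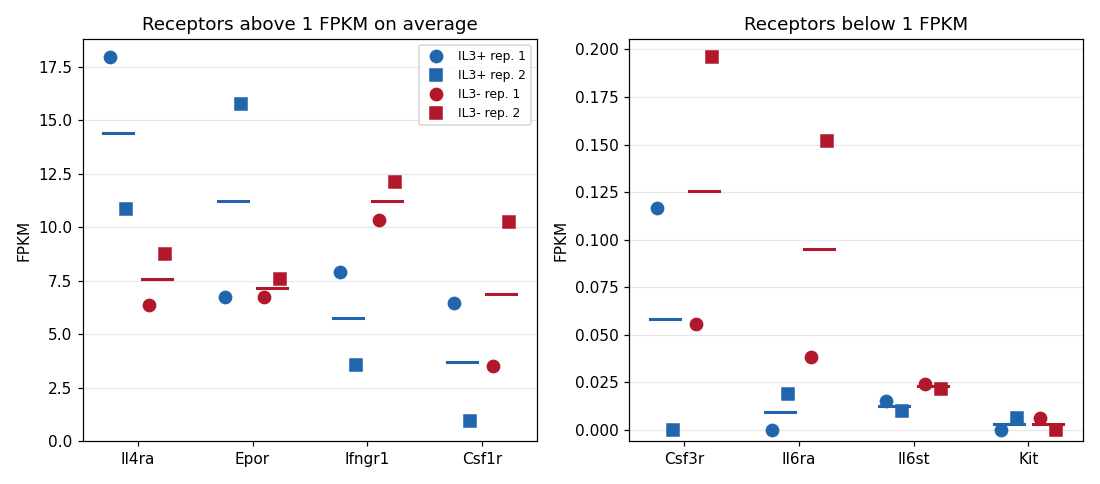
FPKM of each receptor gene in each library (points) and the mean of each group (lines), on linear axes, with a separate axis for the 4 genes of low level; blue marks are Abl1ko/IL3+ and red marks Abl1ko/IL3-. Il4ra, Epor, Ifngr1 and Csf1r lie between 0.932 and 18.0 FPKM in all libraries, and Csf3r, Il6ra, Il6st and Kit lie at or below 0.196 FPKM.

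Of the 8 receptors, 7 passed edgeR's filter on low counts and were tested among 16535 genes, and Kit did not pass. None of the 7 had an adjusted p under 0.05, and neither did any other gene, so the background was 0%. By an unadjusted p under 0.05, 1 of 7 was called, Il4ra, beside 978 of all genes tested, a background of 5.91%. The values of 3 receptors were higher without IL-3 with no overlap between groups (Ifngr1, Il6ra and Il6st), against 19.4% of all genes tested. Those of Il4ra were lower with no overlap, against 17.9% of all genes. The other 3 (Csf3r, Epor and Csf1r) overlapped between groups. The log2 fold change, without IL-3 against with it, was above 0 for 5 receptors and below 0 for 2. Its median was 0.95, against -0.027 over all genes tested, but it ranged from 0.089 to 1.50 over the alternatives. It was 0.20 without Abl1ko/IL3+ replicate 2, 0.15 without Abl1ko/IL3- replicate 2, 0.12 over the 4 receptors with 10 counts or more in every library and 0.089 in limma on log2(FPKM + 1). DESeq2's Wald test called 0 of the 7 at an adjusted p under 0.05, and 271 genes in all (1.64%). The unadjusted calls changed, for the receptors and for all genes, in the fits that each left out 1 library. None of these fits gave a receptor an adjusted p under 0.05.

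**Figure D2:**
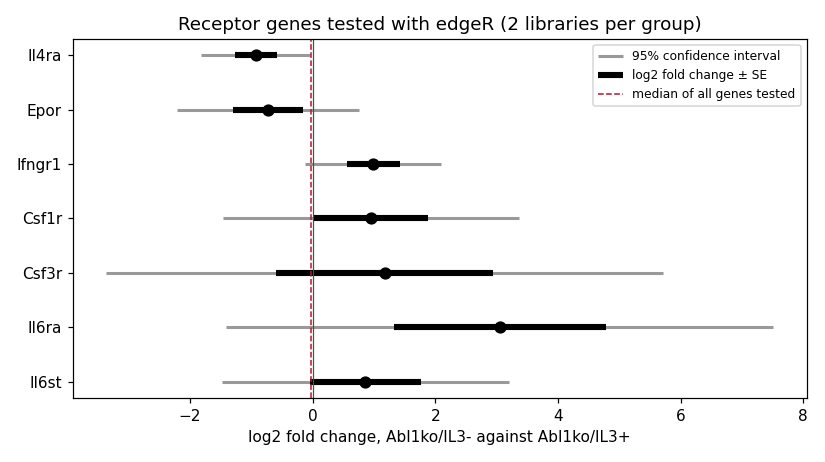
Log2 fold change of the 7 tested receptors in Abl1ko/IL3- against Abl1ko/IL3+ cells, with its SE (thick lines) and 95% confidence interval (thin lines) from edgeR; the dashed line is the median of all genes tested. Only the interval of Il4ra, from -1.82 to -0.04, does not include 0, before any adjustment for the number of genes.

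Il4ra (ENSMUSG00000030748, chr7:125552120-125579474, plus strand, GRCm38) encodes the chain that binds IL-4 and also serves IL-13. It had 7225 and 4430 counts with IL-3 against 2149 and 3300 counts without, or 18.0 and 10.9 FPKM against 6.39 and 8.76 FPKM. Both libraries without IL-3 were thus below both with it. The mean was 14.4 ± 5.01 FPKM (SD, n = 2) with IL-3 and 7.58 ± 1.68 FPKM (SD, n = 2) without it. The level was 1.90-fold higher with IL-3, a log2 fold change of -0.93 (SE 0.35). In edgeR the unadjusted p was 0.0441 and the adjusted p 0.841, so the difference did not pass. The unadjusted p was above 0.05 without TMM factors (0.0746), in the fit with a replicate block (0.143), in limma on FPKM (0.0768 and 0.0821) and in 3 of the 4 fits that left out a library (0.0750 to 0.348). Il4ra shares exon sequence with Gm44876 on the opposite strand, and whether the counting used strand is not given in the sources used here.

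The chain that pairs with IL4RA in blood cells is the common gamma chain, encoded by Il2rg. Its level was 45.3 and 48.1 FPKM with IL-3 against 25.7 and 28.1 FPKM without, again with no overlap. A log2 fold change of -0.83 was fitted (SE 0.31, unadjusted p = 0.0468, adjusted p = 0.841, edgeR). Il2rg was between 2.52 and 4.43 times as high as Il4ra in FPKM in all 4 libraries. It overlaps exons of Gm20489 on the same strand. Il13ra1, the other partner of IL4RA, had 0 and 4 counts with IL-3 against 8 and 134 counts without, so most of its reads came from a single library. The ligand gene Il4 was at 21.5 and 6.17 FPKM with IL-3 against 3.34 and 7.88 FPKM without, groups that overlapped (log2 fold change -1.27, SE 0.71, adjusted p = 0.874, edgeR). Il13 had 11 counts in Abl1ko/IL3- replicate 2 and 0 in the other libraries.

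Ifngr1 (ENSMUSG00000020009, chr10:19591949-19610229, plus strand, GRCm38), the chain that binds interferon gamma, lay in the opposite direction. It had 1510 and 696 counts with IL-3 against 1653 and 2165 counts without, or 7.90 and 3.59 FPKM against 10.4 and 12.1 FPKM. Each library without IL-3 was above each library with it. The mean was 5.75 ± 3.05 FPKM (SD, n = 2) with IL-3 and 11.2 ± 1.24 FPKM (SD, n = 2) without it, 1.98-fold higher in the fit. The log2 fold change was 0.99 (SE 0.43, 95% interval -0.12 to 2.10), with an unadjusted p of 0.0711 and an adjusted p of 0.854 in edgeR. Ifngr2, the second chain of the same receptor, was at 20.4 and 16.5 FPKM with IL-3 against 12.1 and 17.9 FPKM without (log2 fold change -0.32, SE 0.33, adjusted p = 0.94, edgeR). Its groups overlapped in FPKM but lay apart, lower without IL-3, in CPM after TMM normalization. Ifngr2 was the more abundant chain in every library, by 2.58 and 4.59 times with IL-3 and 1.17 and 1.48 times without it. The gene of the ligand, Ifng, was not analysed here.

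Epor (ENSMUSG00000006235, chr9:21958897-21963506, minus strand, GRCm38) encodes the erythropoietin receptor of red cell precursors. It had 903 and 2125 counts with IL-3 against 752 and 950 counts without, or 6.77 and 15.7 FPKM against 6.74 and 7.60 FPKM. Abl1ko/IL3+ replicate 2 was high, and the other 3 libraries lay close together, so the groups overlapped. The mean was 11.3 ± 6.34 FPKM (SD, n = 2) with IL-3 and 7.17 ± 0.614 FPKM (SD, n = 2) without it. The log2 fold change was -0.73 (SE 0.58, 95% interval -2.21 to 0.75, adjusted p = 0.919, edgeR), and its direction rested on that library: without it the value was 0.20.

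Of the 9 listed erythroid and megakaryocyte markers, 6 were also highest in that Abl1ko/IL3+ library. Their summed FPKM was 396 and 7088 with IL-3, against 3794 and 2045 without. Hba-a1, an alpha globin gene, made up most of this sum in 3 of the 4 libraries, with 139 and 6657 FPKM with IL-3 against 3490 and 1795 FPKM without. Gata1, the transcription factor of red cells, megakaryocytes and mast cells, was at 84.8 and 120 FPKM with IL-3 against 59.0 and 57.2 FPKM without. Itga2b, the integrin of megakaryocytes, was at 92.2 to 124 FPKM and highest in Abl1ko/IL3- replicate 1. Tfrc, the transferrin receptor, was lowest in Abl1ko/IL3+ replicate 2 (28.8 FPKM, against 30.2 to 40.1 in the others), and Pf4, a platelet chemokine, was highest in Abl1ko/IL3- replicate 2. Between libraries, fewer cells of a type and less RNA per cell cannot be told apart, since each library is a bulk sample. Whether such cells account for the level of Epor was not tested.

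Epo, the ligand of EPOR, had 0 counts in both libraries with IL-3 and 13 and 38 in those without it. Set against 3 counts in each library with IL-3, it was at least 5.28-fold higher (unadjusted p = 0.0112, adjusted p = 0.727, edgeR). Epo passed the filter on low counts only through the libraries without IL-3, so among genes tested it could only come out higher. Its exons overlap those of Gnb2 on the same strand, so these few reads are uncertain. The bases before the transcription start of Epor are shown because most erythroid markers were highest in the library where Epor was. They come from RefSeq (GRCm38.p6, chr9:21963577-21963826, minus strand, 5′ to 3′), and the capitals mark the GATA motif AGATAA, read on the opposite strand, 54 bases before the end of the window.

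Epor: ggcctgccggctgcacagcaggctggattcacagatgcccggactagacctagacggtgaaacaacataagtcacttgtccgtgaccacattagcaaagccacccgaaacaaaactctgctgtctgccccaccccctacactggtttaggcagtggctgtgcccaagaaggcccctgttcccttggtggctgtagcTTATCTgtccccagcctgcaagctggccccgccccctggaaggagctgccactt

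Of 27025 RefSeq promoter windows of 250 bases, 10.3% hold AGATAA on either strand, so a match is common and only describes the letters. The same search covered GAGGAA, the core bound by PU.1 (23.1% of promoters), the C/EBP pattern TTNNGNAA (36.9%) and the STAT pattern TTCNNNGAA (7.18%). Apart from this AGATAA, none of the 4 patterns occurred in the Epor window.

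Csf1r (ENSMUSG00000024621) encodes the receptor for CSF1 and IL-34, on which macrophages depend. This gene had 2501 and 366 counts with IL-3 against 1141 and 3711 counts without, or 6.46 and 0.932 FPKM against 3.53 and 10.2 FPKM. Replicates differed by 6.94 times with IL-3 and by 2.90 times without it, and the groups overlapped. The mean was 3.70 ± 3.91 FPKM (SD, n = 2) with IL-3 and 6.89 ± 4.75 FPKM (SD, n = 2) without it. The log2 fold change was 0.95 (SE 0.94, 95% interval -1.47 to 3.36, adjusted p = 0.936, edgeR). It was 2.72 without Abl1ko/IL3+ replicate 1, 0.18 without Abl1ko/IL3+ replicate 2 and 0.067 without Abl1ko/IL3- replicate 2. Csf1r shares exon sequence with Hmgxb3 on the opposite strand.

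Macrophage markers also varied between libraries. Summed FPKM of the 8 listed monocyte and macrophage markers was 127 and 29.2 with IL-3, against 79.5 and 410 without, in the same order of libraries as Csf1r. That order rested on Lyz2, since without it the sums were 117 and 15.8 with IL-3, against 30.8 and 68.3 without. Cd68, a lysosomal protein of macrophages, was at 56.7 and 4.60 FPKM with IL-3 against 16.8 and 30.1 FPKM without. Adgre1, the macrophage protein F4/80, was at 59.6 and 11.2 FPKM with IL-3 against 13.8 and 32.5 FPKM without. For both, Abl1ko/IL3+ replicate 1 was highest and replicate 2 lowest. Lyz2, the lysozyme of myeloid cells, was at 10.7 and 13.4 FPKM with IL-3 against 48.7 and 342 FPKM without, and lay apart between groups. Of the other markers, Ly6c2, Mrc1 and Cx3cr1 were at 0 in at least 2 libraries. Cd14 had 2 and 0 counts with IL-3 against 8 and 589 without, and Ccr2 had 9 and 0 against 26 and 106, both with no overlap. The part of such cells in the level of Csf1r was not tested.

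Both ligand genes of CSF1R were expressed. Csf1 was at 17.0 and 2.11 FPKM with IL-3 against 5.10 and 9.08 FPKM without (log2 fold change -0.36, SE 0.90, adjusted p = 0.982, edgeR). Il34 was at 2.99 and 1.14 FPKM with IL-3 against 0.543 and 1.76 FPKM without (log2 fold change -0.83, adjusted p = 0.933, edgeR). Csf1 was lowest in Abl1ko/IL3+ replicate 2, where Csf1r was lowest too. The ratio of Csf1 to Csf1r in FPKM was 2.63 and 2.27 with IL-3, against 1.45 and 0.887 without, so RNA of receptor and ligand was present together in each library.

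**Figure D3:**
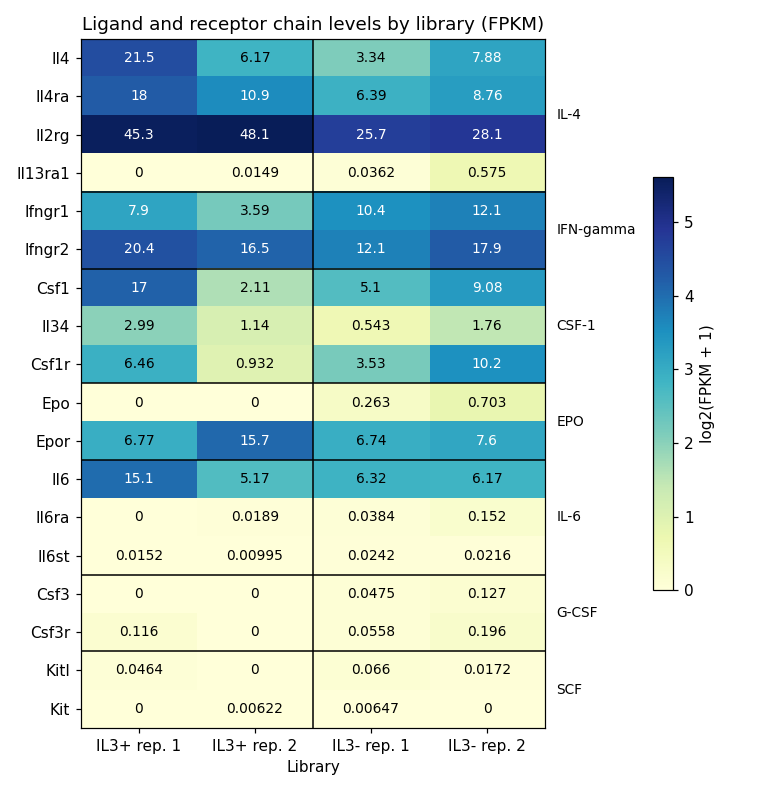
FPKM of receptors, their partner chains and their ligands in each of the 4 libraries, printed in each cell, with libraries in columns and colour for log2(FPKM + 1). Il2rg and Ifngr2 exceed Il4ra and Ifngr1 in all 4 libraries, and Csf1 and Csf1r are both lowest in Abl1ko/IL3+ replicate 2.

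Csf3r (ENSMUSG00000028859, chr4:126024550-126044440, plus strand, GRCm38) encodes the receptor for G-CSF, the growth factor of neutrophils. It had 29 and 0 counts with IL-3 against 12 and 45 counts without, or 0.116 and 0 FPKM against 0.0558 and 0.196 FPKM. The groups overlapped, with means of 0.0582 ± 0.0823 FPKM (SD, n = 2) with IL-3 and 0.126 ± 0.0989 FPKM (SD, n = 2) without it. A log2 fold change of 1.17 was fitted (SE 1.77, 95% interval -3.37 to 5.72, adjusted p = 0.97, edgeR). It ranged from 0.15 to 7.79 when each library was left out in turn, so these reads do not fix its size. The ligand gene Csf3 had 0 counts in both libraries with IL-3 and 4 and 12 counts in those without it, at least 1.62-fold higher against 3 counts in each library with IL-3. It did not pass the filter on low counts.

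In sum, genes of neutrophil granules were far more abundant than Csf3r in every library. Of the 12 listed neutrophil markers 11 were tested, of which 5 were higher and 1 lower without IL-3 at an unadjusted p under 0.05, and 0 passed adjustment in edgeR. Over all genes tested, 423 were higher and 555 lower by that measure (5.91% in all). Camp, 1 of the 5 higher markers, had 4 and 0 counts with IL-3 against 21 and 193 without. It passed the filter on low counts only through the libraries without IL-3, so its direction was fixed beforehand. Mmp8, with 0 counts in both libraries with IL-3 and 18 and 7 without, did not pass. Summed FPKM of the 12 markers was 1268 and 799 with IL-3, against 1180 and 4447 without. Ngp, a granule protein, was at 541 and 158 FPKM with IL-3 against 427 and 3031 FPKM without. S100a9, a calcium-binding protein of neutrophils, was at 13.1 and 2.50 FPKM with IL-3 against 230 and 657 FPKM without, with no overlap. Mpo lay the other way, at 528 and 346 FPKM with IL-3 against 227 and 135 FPKM without. Csf3r itself did not exceed 0.196 FPKM in the library where Ngp and S100a9 were highest.

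**Figure D4:**
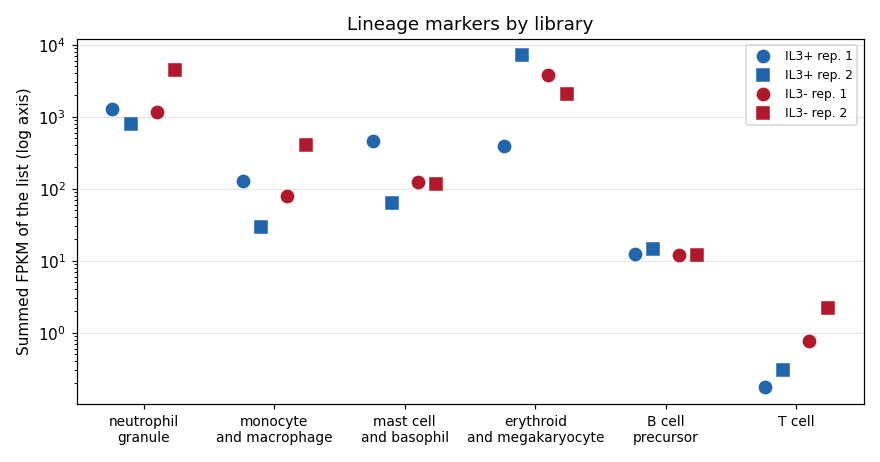
Summed FPKM of the listed markers of each blood cell type in each of the 4 libraries, on a log scale, with Abl1ko/IL3+ and Abl1ko/IL3- libraries as separate marks. Neutrophil and monocyte markers are highest in Abl1ko/IL3- replicate 2, with 4447 and 410 FPKM, and erythroid and megakaryocyte markers are highest in Abl1ko/IL3+ replicate 2, with 7088 FPKM. Single genes make up most of these sums: Ngp with 3031, Lyz2 with 342 and Hba-a1 with 6657 FPKM. Without Lyz2, the monocyte and macrophage sum is highest in Abl1ko/IL3+ replicate 1, with 117 FPKM.

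The genes most like Csf3r over the 4 libraries were Cd300lb, Lsp1 and Zbtb44. Likeness was the Euclidean distance between centred log2 CPM among 9405 genes of higher expression, and it was 0.43, 0.71 and 0.73 for these genes. Cd300lb, an immunoglobulin-like receptor of myeloid cells, was at 13.4 and 0.700 FPKM with IL-3 against 6.50 and 14.4 FPKM without. Like Csf3r, it was lowest in Abl1ko/IL3+ replicate 2. With 0 to 45 counts of Csf3r, the list is a description only.

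Il6ra (ENSMUSG00000027947, chr3:89864059-89913196, minus strand, GRCm38) encodes the chain that binds IL-6, and Il6st (ENSMUSG00000021756, chr13:112464070-112510086, plus strand) encodes gp130, the signalling chain shared by IL-6, IL-11, LIF and oncostatin M. Il6ra had 0 and 12 counts with IL-3 against 19 and 83 counts without, or 0 and 0.0189 FPKM against 0.0384 and 0.152 FPKM. Its groups did not overlap, but most of its reads came from Abl1ko/IL3- replicate 2. The log2 fold change was 3.05 (SE 1.73, 95% interval -1.41 to 7.51, adjusted p = 0.876, edgeR), and it ranged from 1.85 to 8.71 when each library was left out in turn. In limma it was 0.12 on log2(FPKM + 1) and 0.78 on log2(FPKM + 0.1). Il6ra shares exon sequence with Gm42809 on the opposite strand.

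Il6st had 12 and 8 counts with IL-3 against 16 and 16 counts without, or 0.0152 and 0.00995 FPKM against 0.0242 and 0.0216 FPKM. These values did not overlap either (log2 fold change 0.86, SE 0.91, 95% interval -1.48 to 3.20, adjusted p = 0.942, edgeR). All 4 are multiples of 4, as were 38.1% to 40.5% of the counts from 1 to 20 in each library, where 4 was also the most common count above 0. Whether such counts stand for separate fragments was not tested.

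RNA of the ligands Il6, Osm and Lif, but not of Il11, was far more abundant than RNA of these receptor chains. Il6 was at 15.1 and 5.17 FPKM with IL-3 against 6.32 and 6.17 FPKM without (log2 fold change -0.66, SE 0.53, adjusted p = 0.919, edgeR). Osm, which encodes oncostatin M, was at 3.98 and 3.52 FPKM with IL-3 against 1.97 and 9.07 FPKM without (adjusted p = 0.969, edgeR). Lif was at 0.556 and 0.797 FPKM with IL-3 against 0.464 and 1.94 FPKM without (adjusted p = 0.942, edgeR). In every library each of the 3 ligands was above Il6ra and Il6st. Il11 had 12 and 0 counts with IL-3 against 0 and 15 counts without.

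Chains that work with gp130 had a wide span of levels. Il27ra, the IL-27 receptor chain, was at 9.31 and 5.43 FPKM with IL-3 against 4.01 and 3.05 FPKM without, with no overlap (log2 fold change -1.04, SE 0.41, unadjusted p = 0.0538, adjusted p = 0.847, edgeR). Il11ra1 was at 1.21 and 0.395 FPKM with IL-3 against 1.56 and 1.31 FPKM without (log2 fold change 0.88, adjusted p = 0.901, edgeR). Lifr had 11 counts in Abl1ko/IL3+ replicate 1 and Osmr 4 counts in Abl1ko/IL3- replicate 2, with 0 counts of either elsewhere. Il27ra was thus well above its signalling partner Il6st in every library.

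The bases before the start of Il6ra are shown because Il6ra had the largest fold change of the 7 receptors in edgeR. In limma on FPKM it did not. They are from RefSeq (GRCm38.p6, chr3:89913197-89913446, minus strand, 5′ to 3′). The capitals mark AGATAA read on the opposite strand 245 bases before the end of the window, a TTNNGNAA match 116 bases before it that reads on both strands, and a stretch 70 bases before it where GAGGAA, read on the opposite strand, overlaps another TTNNGNAA match.

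Il6ra: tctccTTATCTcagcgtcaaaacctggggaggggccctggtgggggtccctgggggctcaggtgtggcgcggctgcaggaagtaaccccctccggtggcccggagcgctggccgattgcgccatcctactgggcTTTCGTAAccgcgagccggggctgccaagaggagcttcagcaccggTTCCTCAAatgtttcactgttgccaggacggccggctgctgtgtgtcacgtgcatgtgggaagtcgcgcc

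Windows of other receptors were searched in the same way, except for Csf1r, which was not searched. Those of Il4ra, Ifngr1, Il6st, Csf3r and Flt3 held none of the 4 patterns, which says only that these letters are not in these windows. The windows of Il4ra and Csf3r were shorter than 250 bases (99 and 141), because bases after the deposited gene start were left out.

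Kit (ENSMUSG00000005672, chr5:75574916-75656722, plus strand, GRCm38) encodes the stem cell factor receptor of progenitors and mast cells. It had 0 and 4 counts with IL-3 against 4 and 0 counts without, or 0 and 0.00622 FPKM against 0.00647 and 0 FPKM. Kit was thus at 0 or just above the limit of 3 counts in every library, and no difference was detectable at this depth. Its ligand gene Kitl had 19 and 0 counts with IL-3 against 22 and 7 counts without (log2 fold change 0.94, SE 1.79, adjusted p = 0.976, edgeR). The genes most like Kit were Rps13-ps1, Chtf18 and Pabpn1, at distances of 0.32, 0.36 and 0.39, but with at most 4 counts of Kit this likeness rests on which libraries were at 0.

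Mast cells normally carry KIT, and some of their listed genes were abundant while others were low. Summed FPKM of the 8 listed mast cell and basophil markers was 459 and 64.1 with IL-3, against 123 and 117 without. Cpa3, a mast cell carboxypeptidase, was at 198 and 13.6 FPKM with IL-3 against 24.0 and 28.6 FPKM without. Fcer1a, a chain of the IgE receptor, was at 187 and 1.03 FPKM with IL-3 against 21.0 and 22.0 FPKM without. Mcpt8, a basophil protease, was at 18.3 and 40.5 FPKM with IL-3 against 60.6 and 31.4 FPKM without, lowest in Abl1ko/IL3+ replicate 1. Of the other markers, Ms4a2 was at 0.623 to 0.969 FPKM and Hdc at 0.133 to 0.810 FPKM. Tpsb2 had 4 counts in Abl1ko/IL3+ replicate 1 and 0 elsewhere. Cma1 was at 2.08 to 15.3 FPKM and Gata2 at 3.75 to 39.3 FPKM, both highest in Abl1ko/IL3+ replicate 1. In Abl1ko/IL3+ replicate 1, where Cpa3 and Fcer1a were highest, Kit had 0 counts.

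The bases before the start of Kit are shown because Kit had so few reads in cells with these myeloid markers. They are from RefSeq (GRCm38.p6, chr5:75574737-75574915, plus strand, 5′ to 3′), and the capitals mark GAGGAA, 152 bases before the end of the window.

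Kit: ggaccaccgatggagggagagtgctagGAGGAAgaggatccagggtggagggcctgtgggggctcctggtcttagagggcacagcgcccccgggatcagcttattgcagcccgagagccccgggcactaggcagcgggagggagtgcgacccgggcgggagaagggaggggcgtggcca

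Flt3l, which encodes the ligand of FLT3, was at 9.92 and 10.3 FPKM with IL-3 against 12.5 and 9.65 FPKM without (log2 fold change 0.12, SE 0.35, adjusted p = 0.987, edgeR). It shares exon sequence with Gm45713 on the same strand.

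Counts over the whole ligand, chain and signalling lists were small, and they stand beside the 5.91% of all genes with an unadjusted p under 0.05. Of 13 ligand genes 10 were tested, and 1, Epo, was higher at an unadjusted p under 0.05. Epo passed the filter on low counts only through the libraries without IL-3, so its direction was fixed beforehand. Its exons also overlap those of Gnb2 on the same strand. The median log2 fold change of the ligands was 0.29, and the same with Epo at its bound. Of 7 partner chains 4 were tested, and 1, Il2rg, was lower at an unadjusted p under 0.05, with a median of -0.57. No gene of any list had an adjusted p under 0.05 in edgeR. Of the 9 JAK kinases and STAT factors, 0 had an unadjusted p under 0.05, 2 had a log2 fold change above 0 and 7 below, and the median was -0.24. Of 14 genes listed for receptor feedback, such as the SOCS family, 0 had an unadjusted p under 0.05, 5 were above 0 and 9 below, and the median was -0.22. The kinases and factors that these receptors use were all expressed, with summed levels of 99.5 to 199 FPKM. The direction of 2 medians depended on the processing or on the libraries kept. Over 12 alternatives that of the ligands ranged from -0.67 to 0.48 and that of the JAK kinases and STAT factors from -0.47 to 0.17. The latter was above 0 only without Abl1ko/IL3+ replicate 1, the library in which 8 of the 9 genes were highest in FPKM.

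Of 21 other hematopoietic cytokine receptors, 17 were tested, with 1 higher and 2 lower without IL-3 at an unadjusted p under 0.05 (5.91% of all genes) and a median log2 fold change of -0.48. Il10ra, the chain that binds IL-10, was at 1.28 and 1.21 FPKM with IL-3 against 3.55 and 7.05 FPKM without (log2 fold change 2.05, SE 0.49, adjusted p = 0.727, edgeR). It was the only gene of the ligand, chain, signalling and other receptor lists with an adjusted p under 0.05 in DESeq2, at 0.0153. Il1rl1, the IL-33 receptor, was at 29.5 and 5.96 FPKM with IL-3 against 4.84 and 4.13 FPKM without (log2 fold change -1.91, SE 0.72, adjusted p = 0.841, edgeR). Il2rb was at 0.858 and 0.533 FPKM with IL-3 against 0.107 and 0.282 FPKM without (log2 fold change -1.85, SE 0.69, adjusted p = 0.841, edgeR).

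Markers of lymphoid cells were lower in sum than those of myeloid and erythroid cells in every library. Summed FPKM of the T cell markers was 0.174 and 0.303 with IL-3, against 0.758 and 2.18 without, of which Cd3d and Cd3g, chains of the T cell receptor complex, made up most without IL-3. Summed FPKM of the B cell precursor markers was 12.1 to 14.6, with Cd79b the highest by mean, followed by Cd79a at 0.431 to 6.41 FPKM and Vpreb1 at 0.675 to 2.32 FPKM.

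**Figure D5:**
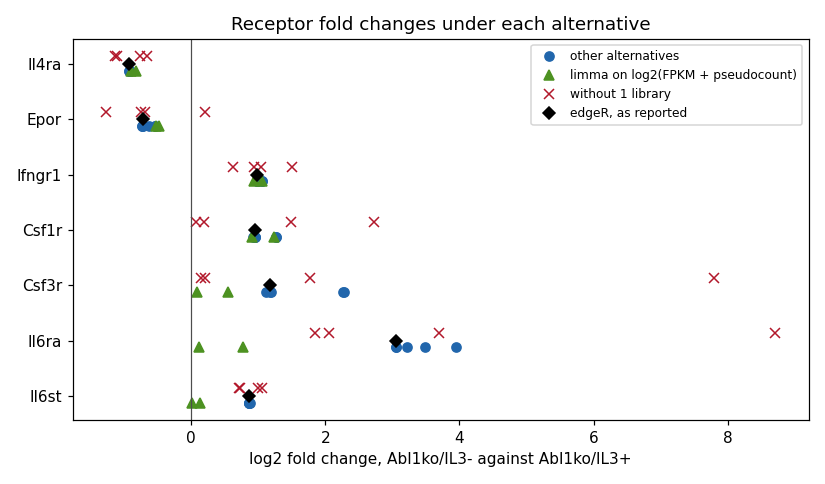
Log2 fold change of the 7 tested receptors in Abl1ko/IL3- against Abl1ko/IL3+ cells under each other way of processing the counts or FPKM, with fits that leave out 1 library as crosses. Il4ra stays below 0 and Ifngr1 above 0 throughout, Epor lies on both sides of 0, and Csf1r, Csf3r and Il6ra spread widely. As the groups of Il4ra and Ifngr1 do not overlap, fits that leave out 1 library could hardly cross 0 for them.

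Across 12 other ways of processing, Il4ra had a log2 fold change of -1.14 to -0.67 and Ifngr1 one of 0.62 to 1.50. That of Csf1r ranged from 0.067 to 2.72. The groups of Il4ra and Ifngr1 did not overlap, so leaving out a library could hardly turn their directions. For these genes such fits bear only on the size of the change. The lowest adjusted p that any receptor reached was 0.232, for Ifngr1 without Abl1ko/IL3+ replicate 1.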

How the data were processed

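RNA depleted of ribosomal RNA was sequenced on an Illumina HiSeq instrument. The authors deposited raw counts per gene and FPKM values side by side. The study's methods name Rsubread, featureCounts and GRCm38, while the submitters' processing notes name STAR, Cuffdiff and mm10. Versions, strand setting, handling of read pairs and the FPKM tool are not given in the sources used here. Library totals were 48953174 to 60382588 counts.

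Groups followed the labels. The members and lists were chosen with earlier results of these data known. Counts were filtered (filterByExpr), TMM-normalized and tested with edgeR 4.0.16 in R 4.3.3 (quasi-likelihood F test, two-sided, Benjamini-Hochberg over 16535 genes, threshold 0.05), and steps were tested on simulated data. FPKM was used to compare levels between genes. Named were all members, ligands and partner chains with 20 or more counts in a library (the rest by counts only), up to 4 genes with the lowest unadjusted p under 0.05 in each signalling and receptor list, the 3 highest markers a cell type by mean FPKM, the 3 genes nearest to Csf3r and Kit (mean log2 CPM of 3 or more), and Abl1. Rag1, Ly6c2, Mrc1, Cx3cr1, Cd14, Ccr2, Tfrc, Pf4, Ms4a2, Hdc, Tpsb2, Cma1, Gata2, Camp and Mmp8 were named after their values were seen.

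Alternatives were DESeq2 1.42.0, library size only, no filter or 10 counts in every library, limma 3.58.1 on log2(FPKM + 1) and log2(FPKM + 0.1), the replicate number as a block, and each library left out. Promoter windows came from RefSeq, cut to bases before the deposited gene starts.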

Additional observations from a re-analysis of the deposited data

How the results depend on the processing

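No receptor passed an adjusted p of 0.05 under any alternative, and of the members' directions only that of Epor turned, to 0.20 without Abl1ko/IL3+ replicate 2 (range -1.27 to 0.20 with each library left out). The count of all genes called was 271 in DESeq2 and 0 to 22 when each library was left out, against 0 in edgeR; the count for the ligand, chain, signalling and other receptor lists was 1 in DESeq2. With 1 library left out, the lone library of its group was assumed to vary like the others. Libraries with the same number tended only weakly to deviate from their group means in opposite directions (r = -0.194 over 16535 genes). With 2 libraries a group, both numbers give this same value. The labels do not say what a number shares, so the numbers were not taken as pairs. In the fit with a replicate block, 0 genes passed and 548 had an unadjusted p under 0.05, and the values were -0.92 for Il4ra and 1.05 for Ifngr1. With crossed pairs, a choice made after seeing the data, 0 genes passed adjustment. There, 3 of 7 receptors and 1136 of all 16535 genes had an unadjusted p under 0.05. The median of all genes moved between -0.061 and 0.077 on the log2 scale. Low counts, at most 83 in any library, limit Csf3r, Il6ra, Il6st and Kit.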

Other observations

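Il4ra and Ifngr1 exchanged order between the groups, a comparison chosen after their values were seen. The ratio of Il4ra to Ifngr1 in FPKM was 2.27 and 3.03 in the libraries with IL-3 and 0.617 and 0.723 in those without it. The libraries with IL-3 thus had more RNA of the IL-4 receptor chain per length, and those without it more RNA of the interferon gamma receptor chain. As the groups of each gene lay apart in opposite directions, their ratio had to lie apart as well. Neither change passed adjustment (adjusted p = 0.841 for Il4ra and 0.854 for Ifngr1, edgeR). Csf1r and Epor had no such order by group: their ratio was 0.955 and 0.0592 with IL-3, against 0.524 and 1.35 without, lowest in Abl1ko/IL3+ replicate 2.

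In each library, 1024 to 1075 genes had exactly 4 counts, against 460 to 538 genes with exactly 1 count.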
